A study of Mus musculus with 21 samples.

Results

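The genes described here encode the lysosome of monocytes and macrophages: soluble hydrolases, proteins of the lysosomal membrane, subunits of the proton pump, and the transcription factor Tfeb. The list holds 40 genes, chosen by name, and the signal of each was read from 1 probe set, of those assigned to that gene alone the one whose mean over 21 arrays was highest. Of the 40, 39 had such a probe set, out of 18193 genes in all, and the pump gene Atp6v0c was not analysed here. All 39 passed the filter on low signal and were among the 12154 genes tested. They are 10 proteases, 8 glycosidases, the sulfatase Ids, 7 genes of lipid breakdown, lipid export and progranulin, 5 membrane proteins, 7 pump genes and Tfeb.

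The arrays measured sorted cells of female C57BL/6 mice aged 7 to 8 weeks, with 3 arrays in each of 7 groups. Peritonitis was induced by intraperitoneal zymosan, a particle of yeast cell wall that phagocytes engulf. From the inflamed cavity came Ly-6B+ Ly-6G- monocytes at 4 h, Ly-6G- cells positive or low for Ly-6B at 18 h, and F4/80+ CD11b+ macrophages at 72 h. At 168 h, macrophages were split by Ly-6B: the positive ones were F4/80 medium to high, the negative ones F4/80 high. Naive mice gave monocytes of the bone marrow (Ly-6B+ Ly-6G-) and the resident macrophages of the peritoneum (F4/80 high, CD11b high). The labels name the arrays of a group biological replicates and do not say how many mice gave each, so the p-values measure the spread between these samples.

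Lysosomes are acidic organelles in which engulfed particles, cell debris and the cell's own material are broken down. The vacuolar ATPase pumps protons into them, and the low pH lets cathepsins, glycosidases and lipases work, while heavily glycosylated membrane proteins line the inside and transporters let the products out. The transcription factor TFEB and its relatives switch on many of these genes through a short promoter element with the letters CACGTG at its core. Macrophages are known for a large lysosomal compartment, which they use to digest what they engulf.

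That core was looked for in RefSeq promoters (build GRCm38.p6), from 250 bases before to 50 bases after each start, and because it reads the same on both strands, 1 search covers both. Promoters were found for 33 of the 40 genes, and 11 of these 33 (33.3%) held CACGTG, against 8.09% of 27025 genes in the table. By promoter, it was in 27.5% of the 40 promoters of these genes and in 7.15% of all 32851. With a T before it, as TCACGTG read on either strand, the 7-letter form was in 10 genes (30.3%), against 4.29% of all genes, and in 25% of their promoters against 3.77% of all promoters. Every TCACGTG holds a CACGTG, so the 7-letter matches are part of the 6-letter ones. The list was chosen by name and the element is known from genes of this kind. These higher shares could therefore be foreseen and are no result of the arrays. The 11 genes were Atp6v0d1, Atp6v1a, Ctsa, Ctsd, Ctsl, Gaa, Gla, Glb1, Lamp1, Lgmn and Mcoln1. Of the 11, 7 were called in at least 1 comparison (the rule follows), and of the 21 measured genes whose promoters lacked the letters, 7 were called, while 39.4% of all genes tested were called at least once. This difference between the genes with and without the letters was not tested. The shared letters are shown for the 7 of these genes with the highest ratio of highest to lowest group mean and for Lamp1, which carries 4 copies, each 5′ to 3′ in the direction of its gene with CACGTG in capitals. The windows are chr12:102439124-102439153 on the minus strand for Lgmn, chr9:114401018-114401047 on the plus strand for Glb1, chr7:142387908-142387937 on the minus strand for Ctsd, chr13:64370739-64370768 on the minus strand for Ctsl, chr11:119267811-119267840 on the plus strand for Gaa, chrX:134601182-134601211 on the minus strand for Gla, chr8:3500436-3500465 on the plus strand for Mcoln1, and chr8:13159088-13159117 on the plus strand for Lamp1. The first capital lies 49, 48, 98, 236, 140, 194, 71 and 61 bases before the start of these genes, in the same order.
Lgmn: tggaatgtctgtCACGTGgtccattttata
Glb1: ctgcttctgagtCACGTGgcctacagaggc
Ctsd: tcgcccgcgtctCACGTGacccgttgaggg
Ctsl: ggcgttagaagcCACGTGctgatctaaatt
Gaa: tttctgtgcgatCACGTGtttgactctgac
Gla: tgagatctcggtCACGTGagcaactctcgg
Mcoln1: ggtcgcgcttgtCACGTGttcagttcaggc
Lamp1: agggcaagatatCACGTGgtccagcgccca
The windows share the core and differ in the bases around it, and Ctsl is the one of the 11 genes without the 7-letter form. Among these genes Lgmn, Glb1, Ctsd, Ctsl and Gaa were called higher in resident macrophages than in bone marrow monocytes and Gla was called lower. Whether the letters go with a direction was not tested. A match describes the letters in this window only.

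Signals are on the linear MAS5 scale, and changes are differences of log2(signal + 15) with their standard error (SE). A gene was called where the Benjamini-Hochberg adjusted p over all 12154 genes was under 0.05 and the log2 change was at least 1 in size. Array medians ran from 67.3 to 92.96, and arrays of 1 group correlated at 0.965 to 0.981 over genes. Bone marrow and resident cells differed in the markers of their labels. The summed signal of 9 resident macrophage markers was 6863 to 7778 in bone marrow and 195415 to 212414 in resident cells. That of 6 classical monocyte markers was 84772 to 87297 and 5911 to 6921. All 3 bone marrow arrays also had high sums of neutrophil (76563 to 241520), progenitor (35316 to 94450) and proliferation markers (48921 to 63731). In resident cells these sums were 1269 to 1375, 6234 to 9374 and 2017 to 8484. Some arrays stood apart. The neutrophil gene S100a9 was at 39146 in bone marrow replicate 3 against 8538 and 5796 in the others, the resident macrophage gene Alox15 at 2199.8 in 4 h replicate 2 against 131 and 156, and the B cell gene Ms4a1 at 5384 in 72 h replicate 2 against 267 and 289. Without these 3 arrays the counts of called lysosomal genes were 10, 6, 7, 5, 3, 4, 1 and 1 in the order in which the 8 comparisons are described, a choice of arrays made after seeing the data, and the F test was passed by 35. In sorted bulk samples, fewer cells of a type and less RNA per cell cannot be told apart.

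The lysosomal genes took a larger share of the total signal in macrophages than in bone marrow monocytes. Their summed signal was 1.54% to 1.59% of that of all 18193 genes in bone marrow, 1.74% to 1.81% at 4 h, 1.86% to 1.91% at 18 h and 2.04% to 2.18% at 72 h. It was 1.74% to 1.93% in the Ly-6B+ group of 168 h, 2.08% to 2.21% in the Ly-6B- group and 2.13% to 2.19% in resident cells. The Ly-6B+ arrays lay below all Ly-6B- and resident arrays and all 72 h arrays. Across the 7 groups, limma's F test was passed by 36 of 39 genes, where 69.7% of all genes tested passed, and the exceptions were Atp6v0d2 (adjusted p = 0.0949), Ctsk (0.187) and Ctss (0.0712). The ratio of the highest to the lowest group mean ran from 1.25 for Ctsc, cathepsin C, to 13.9 for Lgmn. By mean log2 signal as deposited, 12 genes were highest in resident cells and 10 at 4 h, while 15 were lowest at 4 h and 10 in bone marrow. These counts depended on the scaling, since the 4 h arrays had low medians: at a common array median, 17 genes were highest at 4 h and 7 in resident cells, while 7 were lowest at 4 h and 16 in bone marrow.

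**Figure D1:**
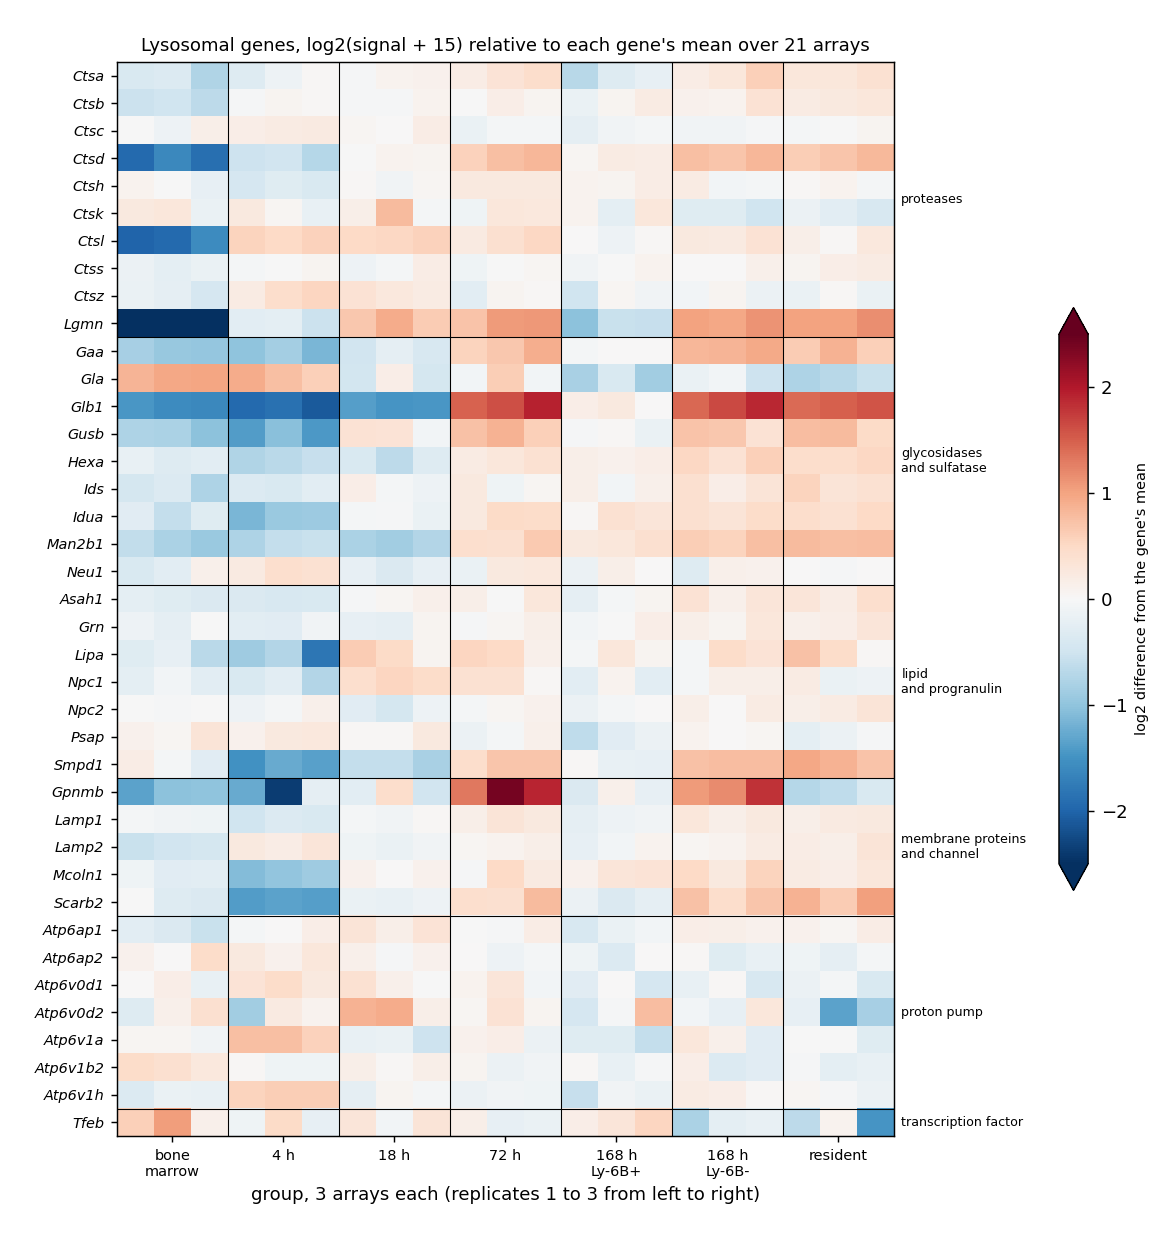
Each row is 1 of 39 lysosomal genes, ordered by role, and each column 1 of 21 arrays in 7 groups; colour is log2(signal + 15) minus the gene's mean over the arrays, and the darkest colours also hold values beyond the ends of the scale. Lgmn, Ctsd and Ctsl are lowest in bone marrow, Glb1 is low in the bone marrow, 4 h and 18 h arrays, and Atp6v1a and Atp6v1h are highest at 4 h.

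Resident macrophages had 8 of the 39 genes higher than bone marrow monocytes and 2 lower. The higher ones were the proteases Lgmn, Ctsd and Ctsl, the glycosidases Glb1, Gaa, Man2b1 and Gusb, and the membrane protein Scarb2. The lower ones were Gla and Tfeb. Of all genes tested, 12.8% were called higher and 10.1% lower, so the share of 20.5% higher was above the background and that of 5.13% lower was below it. The median log2 change was 0.44 over the 39 genes and 0.05 over all genes, and 30 of 39 were above 0. Without the fold minimum, 23 passed as higher and 5 as lower, where the rates over all genes were 25.3% and 22.1%. Markers of other cells moved with this comparison: 9 of 11 neutrophil, 8 of 9 progenitor and 5 of 5 proliferation markers were called lower in resident cells, and the summed neutrophil markers were 76563 to 241520 in bone marrow and 1269 to 1375 in resident cells. Their part in the result was not tested.

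Lgmn encodes legumain, the asparaginyl endopeptidase that processes other lysosomal proteases. Its signals were 813, 918 and 825 in bone marrow, 4719.9, 4799 and 3919.9 at 4 h, 9053, 10886 and 8832 at 18 h, and 9289, 11924 and 12122 at 72 h. In the Ly-6B+ group of 168 h they were 2777, 3856 and 3826, against 11399, 11055 and 12359.5 in the Ly-6B- group and 11392, 11446 and 12687 in resident cells. Bone marrow, 4 h and 18 h arrays did not overlap with each other, and the Ly-6B+ arrays lay below every 4 h, 18 h, 72 h, Ly-6B- and resident array. Resident cells exceeded bone marrow monocytes by 3.77 (SE 0.13, adjusted p = 5.30e-15), a 13.7-fold difference.

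Ctsd, cathepsin D, is the main aspartic protease of lysosomes. It was at 3639, 4598 and 3811 in bone marrow and at 21581, 22553 and 24545 in resident cells, a difference of 2.51 (SE 0.10, adjusted p = 2.96e-14). Its arrays at 4 h (9810.1, 10064 and 8606), 18 h (13882, 14944 and 14634) and 72 h (21052, 23559 and 24905) lay in separate ranges that increased with time. The Ly-6B+ arrays, at 14429, 16125 and 16004, were below the Ly-6B- arrays at 23682, 22728 and 24962. Ctsl, cathepsin L, a cysteine protease, had a different order with the probe set used. It was at 3130.1, 3239 and 4189 in bone marrow and already at 18414, 17788 and 18749.7 at 4 h, and its resident arrays were at 13802, 12745 and 15149 (1.99, SE 0.11, adjusted p = 3.26e-12). Its second probe set, at a mean signal of 344, gave 2.72 for resident cells. That one gave 0.37 at 4 h against bone marrow, 0.35 at 18 h against 4 h and 0.63 at 72 h against 18 h. For 72 h against resident cells it gave -1.37.

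Among the glycosidases, Glb1 encodes beta-galactosidase, which removes galactose from glycolipids and glycoproteins. Its signals were 991, 903 and 885 in bone marrow, 703, 737 and 627 at 4 h, and 1037, 971 and 990.1 at 18 h. They were 7587, 8355 and 10422 at 72 h, 3055, 3239.7 and 2734 in the Ly-6B+ group, 7405, 8640.5 and 10091 in the Ly-6B- group, and 7315, 7741 and 8151 in resident cells. The Ly-6B+ arrays stood between these levels and overlapped with neither. The resident level was above that of bone marrow by 3.04 (SE 0.13, adjusted p = 5.94e-14).

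Gaa, the acid alpha-glucosidase that degrades glycogen, was at 764, 704 and 695 in bone marrow against 2128, 2509 and 2076 in resident cells (1.61, SE 0.12). Man2b1, a lysosomal alpha-mannosidase, had 9241, 8200.3 and 7444 against 24369.9, 23874 and 24232 (1.55, SE 0.10). Gusb, beta-glucuronidase, which acts on glycosaminoglycans, had 3954, 3899.9 and 3276 against 11438, 11675 and 9366 (1.54, SE 0.14). In all of them the resident arrays were above every bone marrow array. Scarb2 encodes LIMP-2, a membrane protein that carries glucocerebrosidase to the lysosome, and was at 5089, 4088 and 3992 against 9425, 7988 and 10515 (1.082, SE 0.13). Without resident replicate 3 the Scarb2 difference was 0.99, just under the fold minimum.

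Gla, alpha-galactosidase A, which cleaves terminal galactose from globotriaosylceramide, went the other way. Its signals were 889.9, 974 and 985 in bone marrow, 944, 831 and 742 at 4 h, 352, 549 and 355 at 18 h, and 466, 759.6 and 466 at 72 h. In the 168 h groups they were 271, 371 and 259 with Ly-6B and 433, 466 and 334 without, and 279.9, 296 and 327 in resident cells. The bone marrow arrays overlapped with those of 4 h and were above all later and resident arrays, and the resident difference was -1.61 (SE 0.20, adjusted p = 1.23e-06). 2 further Gla probe sets gave -2.14 and, at a mean signal of 19.7, -0.16.

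Tfeb was at 903, 1239 and 652 in bone marrow and at 369.7, 632 and 204 in resident cells. The groups did not overlap, but the resident arrays spread widely, and the difference of -1.27 (SE 0.30, adjusted p = 0.00132) became -0.87 without resident replicate 3 and was then no longer called. Its other groups lay between, with means from 452 in the Ly-6B- group to 758 in the Ly-6B+ group.

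**Figure D2:**
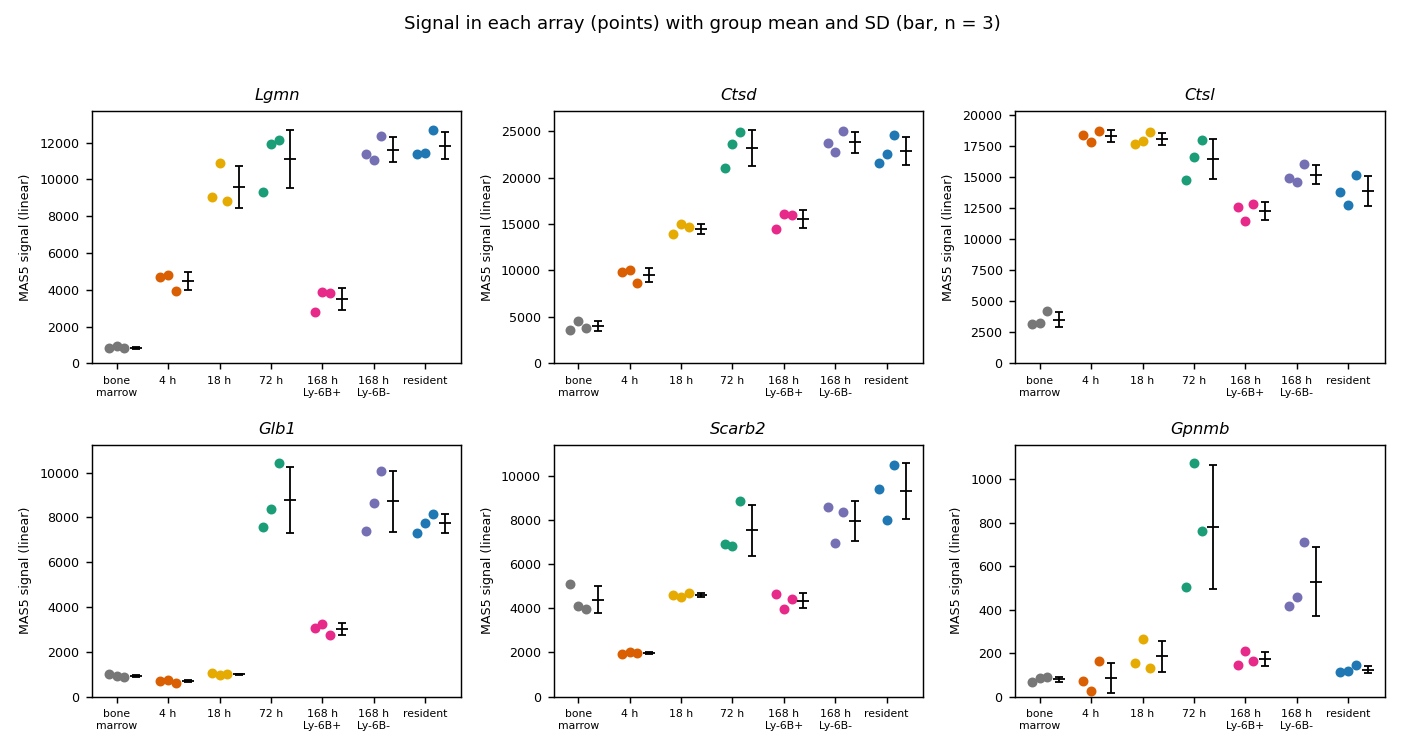
Points are the linear MAS5 signal of each array for 6 genes in 7 groups, and bars are the mean and SD of 3 arrays; every axis starts at 0. Lgmn and Ctsd increase from bone marrow to 72 h, Ctsl is high from 4 h, Glb1 is high only in the 72 h, 168 h and resident groups, Scarb2 is lowest at 4 h, and Gpnmb is high at 72 h and in the Ly-6B- group but not in resident cells.

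At 4 h, the proteases Ctsl, Lgmn and Ctsd were higher than in bone marrow monocytes, and Smpd1 and Scarb2 were lower. Those 3 genes higher and 2 lower, of 39, compare with 7.45% and 14.5% of all genes, so the share of 7.69% higher was near the background and that of 5.13% lower was below it. The median was -0.07 for the list and -0.14 for all genes. Passing on adjusted p alone were 11 genes in each direction, where 16.4% of all genes passed as higher and 30.1% as lower. Ctsl changed most, by 2.39 (SE 0.11, adjusted p = 5.23e-13), then Lgmn by 2.37 (SE 0.13, adjusted p = 1.74e-11) and Ctsd by 1.24 (SE 0.10, adjusted p = 2.35e-09). A second Ctsl probe set, at a mean signal of 344, gave 0.37. Markers moved here too: 9 of 11 neutrophil markers were called lower and 1 higher at 4 h, with a sum of 11392 to 12253, 7 of 9 progenitor and 5 of 5 proliferation markers were lower, and 6 of 9 resident macrophage markers were higher and 1 lower. Their part in the result was not tested.

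Smpd1, acid sphingomyelinase, which turns sphingomyelin into ceramide, was at 960.2, 811 and 683 in bone marrow and at 283, 341 and 321 at 4 h (-1.33, SE 0.13, adjusted p = 5.51e-08). Scarb2 was at 1947, 2026 and 1965 at 4 h, below every array of the other groups (-1.13, SE 0.13, adjusted p = 2.60e-07). These calls depended on the probe set and on the scaling. Second probe sets gave -0.53 for Smpd1 and -0.26 for Scarb2. With the mean of each gene's probe sets, Smpd1 stood at -0.93 and Scarb2 at -0.70, neither called. The median over tested genes of the 4 h arrays was 0.36 lower on the log2 scale than that of bone marrow, and when all arrays were set to a common median, Smpd1 stood at -0.96 and Scarb2 at -0.77, neither called. The same scaling called 7 genes higher and 0 lower in limma, adding Ctsz, a cathepsin (1.02), Lamp2 (1.10), Atp6v1a (1.06) and Atp6v1h (1.19), and it moved the part of all called genes that were higher from 34.0% to 59.0%. No call turned its direction, and Ctsl, Lgmn and Ctsd were called under both scalings. Without the 3 arrays that stood apart, 3 genes were higher and 3 lower, with Lipa added at -1.09.

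Between 4 h and 18 h, Lipa, Gusb, Scarb2, Gpnmb, Lgmn and Mcoln1 were higher at 18 h and Gla was lower. That is 6 genes higher and 1 lower, or 15.4% and 2.56%, against 10.9% and 4.48% of all genes. The median was 0.21 for the list and 0.14 for all genes. With the fold minimum dropped, 16 were higher and 6 lower, where the rates were 27.5% and 12.5%. Lipa, lysosomal acid lipase, which frees cholesterol from its esters, was at 1644, 1825 and 859 at 4 h and at 4699, 4229.7 and 3183 at 18 h (1.53, SE 0.24, adjusted p = 2.93e-05). Gusb was at 2555, 3253 and 2472 and then at 8593, 8552 and 6433 (1.503, SE 0.14, adjusted p = 5.52e-08). The arrays of the 2 times did not overlap for either gene.

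Scarb2 returned from its 4 h level to 4609, 4523 and 4711, a change of 1.22 (SE 0.13). A second Scarb2 probe set gave 0.44, and the mean of both, 0.83, was not called. Mcoln1, the lysosomal calcium channel mucolipin 1, was at 393, 424 and 455 at 4 h, its lowest group, and at 928, 865 and 921 at 18 h (1.07, SE 0.13, adjusted p = 1.82e-06). Lgmn increased by a further 1.10 (SE 0.13). Gla changed by -1.001 (SE 0.20, adjusted p = 4.44e-04), at the edge of the fold minimum, and reached -0.91 without 4 h replicate 1, -0.90 without 18 h replicate 1 and -0.90 without 18 h replicate 3. Gpnmb passed at 1.18 (SE 0.38, adjusted p = 0.0180), but its arrays overlapped, at 71.4, 25.03 and 162 against 156, 267 and 133, and it was 0.64 without 4 h replicate 2 and 0.91 without 18 h replicate 2, neither called. Without the 3 arrays that stood apart, Gpnmb was lost and Npc1 was added at 1.03.

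At a common array median, where the 18 h arrays lay 0.29 above those of 4 h before scaling, 2 genes were called higher (Lipa and Gusb) and 2 lower (Gla at -1.29 and Atp6v1a at -1.28), and the part of all called genes that were higher went from 70.8% to 42.6%. Lgmn then stood at 0.80, Scarb2 at 0.92 and Mcoln1 at 0.78. RNA quality also moved with this comparison: the Gapdh 3′/5′ signal ratio was 2.47 to 2.70 at 4 h and 1.64 to 2.12 at 18 h. Of the markers, 7 of 9 for resident macrophages were called higher and 1 lower at 18 h, 3 of 5 for proliferation were higher, 3 of 11 for neutrophils were lower and 1 higher, and 2 of 6 for classical monocytes were lower and 1 higher. The part of RNA quality and of these cells in the result was not tested.

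From 18 h to 72 h, Glb1, Gpnmb, Man2b1, Smpd1 and Gaa were higher in the later macrophages and no gene of the list was lower. The share of 12.8% higher compares with 9% of all genes, and limma called 3.41% of all genes lower against 0 of 39 here, with 2 lower at an unadjusted p under 0.05. The median was 0.18 for the list and 0.03 for all genes. With no minimum fold, 13 were higher and 0 lower, against 17.4% and 12.9% of all genes. Glb1 had the largest change of the 39 genes, 3.11 (SE 0.13, adjusted p = 6.79e-13), an 8.61-fold difference. Man2b1 went from 8161, 7760.4 and 8568 to 18855, 18817 and 22148 (1.28, SE 0.10), Gaa from 985, 1167 and 1039 to 2019, 2203 and 2584 (1.078, SE 0.12), and Smpd1 from 547, 554 and 471 to 1152, 1366 and 1359.7 (1.28, SE 0.13). The times did not overlap for any of the 3.

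The glycosidases and Ids were all above 0, from 0.07 for Ids to 3.11 for Glb1, and 6 of these 9 passed as higher without the fold minimum. Of the proteases 2 of 10 did, and of the pump genes 0 of 7 did by limma. Gaa was at 0.98 without 72 h replicate 3 and at 0.96 at a common array median, which were not called. A second Smpd1 probe set gave -0.01, where the one used gave 1.28, and the mean of both, 0.63, was not called. A second Man2b1 probe set gave 0.63, where the one used gave 1.28, and the mean of both, 0.96, was not called. Gaa was not called with the mean of its probe sets either. At a common median 4 genes were higher and 0 lower, and the part of all called genes that were higher was 64.6%, against 72.5% as deposited, with the 72 h arrays 0.12 above those of 18 h. Markers moved with this comparison as well: 7 of 9 resident macrophage markers were called higher and 6 of 6 classical monocyte markers lower at 72 h. All 5 of 5 proliferation markers were higher, with sums of 6907 to 32190 at 72 h against 1057 to 1428 at 18 h. The part of these markers in the result was not tested.

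Gpnmb encodes a transmembrane glycoprotein of endosomes and lysosomes that is known to mark macrophages loaded with lipid or debris. It was at 156, 267 and 133 at 18 h and at 503, 1074 and 763 at 72 h (1.98, SE 0.38, adjusted p = 4.55e-04). In the Ly-6B+ group it was at 145, 211 and 165, in the Ly-6B- group at 417, 457 and 709.9, and in resident cells at 112, 118 and 144. The 72 h and Ly-6B- arrays were above all others and overlapped with each other. Its second probe set had a mean of 25.7, below the table median of 80.6, and with the mean of both the 72 h changes were 0.82 against 18 h and 1.10 against resident cells, neither called (adjusted p = 0.0956 and 0.219).

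**Figure D3:**
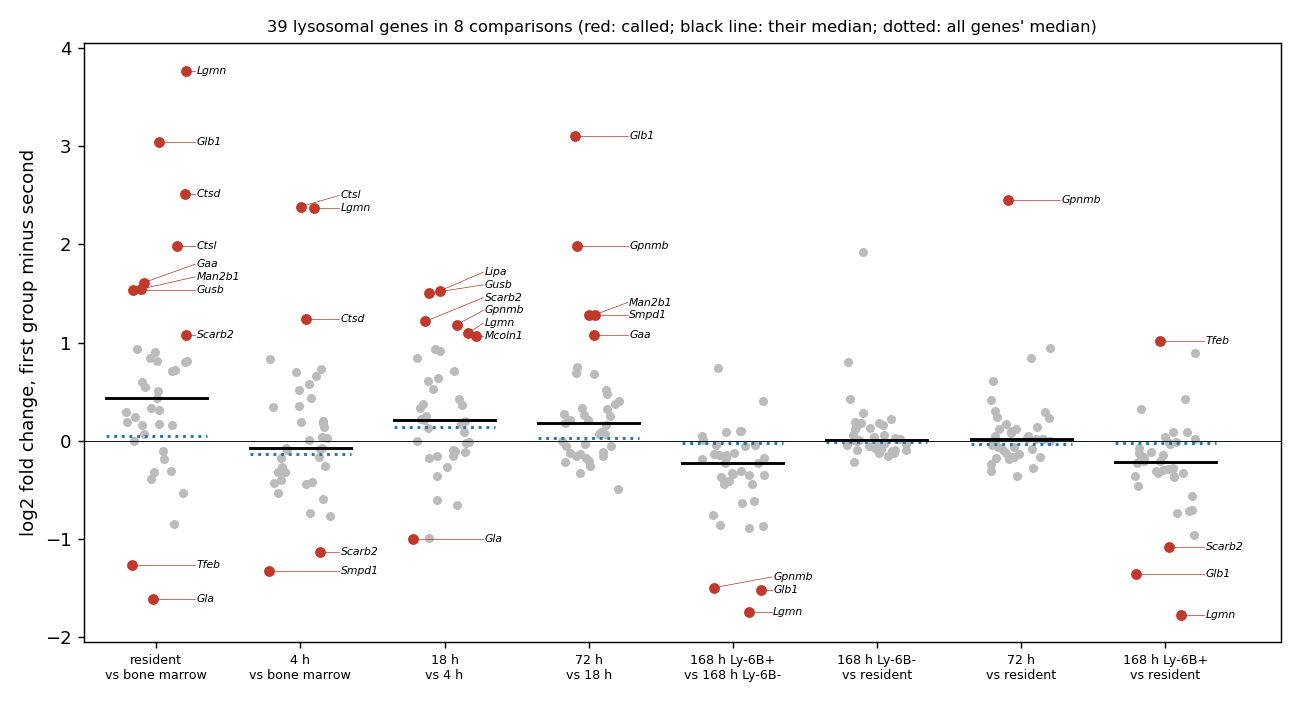
Each point is the log2 change of 1 of 39 genes in 1 of 8 comparisons, first group minus second; red points with names are called, the black line is the median of the 39 genes and the dotted line that of all genes tested. The highest point is Lgmn at 3.77 in resident cells against bone marrow, and the called genes of the Ly-6B+ group against the Ly-6B- group all lie below 0.

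At 168 h, the Ly-6B+ macrophages had lower Lgmn, Glb1 and Gpnmb than the Ly-6B- macrophages, and no gene of the list was called higher. The lower share, 3 of 39 or 7.69%, compares with 2.38% of all genes, and 1.49% of all genes were called higher against 0 here by limma, with 1 higher at an unadjusted p under 0.05. The median was -0.23 for the list and -0.02 for all genes, and 7 of 39 were above 0. Counting adjusted p alone, 16 were lower and 0 higher, where 4.58% of all genes passed as lower and 3.51% as higher. Lgmn differed by -1.75 (SE 0.13, adjusted p = 2.68e-08) and Glb1 by -1.52 (SE 0.13, adjusted p = 7.21e-08).

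Further genes were lower but short of the fold minimum. Gaa stood at -0.89, Smpd1 at -0.88, Scarb2 at -0.87 (-1.09 and called with the mean of its probe sets), Ctsa at -0.75, Gusb at -0.64 and Ctsd at -0.62, each with an adjusted p under the threshold. Ctsa encodes cathepsin A, which protects beta-galactosidase and neuraminidase in a complex. By role, 5 of the 9 glycosidases and Ids, 3 of 10 proteases and 2 of 7 pump genes passed as lower on adjusted p. Gpnmb differed by -1.50 (SE 0.38, adjusted p = 0.0165), with no overlap between the arrays. That call was lost without Ly-6B+ replicate 1 (adjusted p = 0.0695), Ly-6B+ replicate 3 (0.0545) or Ly-6B- replicate 3 (0.0924). Markers moved with this comparison, since 4 of 9 resident macrophage markers were called lower and 5 of 6 classical monocyte markers higher in the Ly-6B+ group. The summed resident markers were 106600 to 121164 against 186923 to 207842, and the summed monocyte markers 36020 to 44295 against 2586 to 5678. Their part in the lysosomal differences was not tested.

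Against resident macrophages, the Ly-6B+ group had lower Lgmn, Glb1 and Scarb2 and higher Tfeb. The 3 lower genes are 7.69% of the list, where 2.36% of all genes were lower, and the 1 higher gene is 2.56%, where 1.9% were higher. The median was -0.22 for the list and -0.03 for all genes. By adjusted p alone, 13 genes were lower and 1 higher, with rates over all genes of 4.9% and 4.09%. Lgmn differed by -1.77 (SE 0.13, adjusted p = 2.28e-08), Glb1 by -1.36 (SE 0.13, adjusted p = 2.77e-07) and Scarb2 by -1.09 (SE 0.13, adjusted p = 6.17e-06). This comparison shares the Ly-6B+ arrays with the one before, and the same marker lists moved, with 4 of 9 resident macrophage markers lower and 5 of 6 classical monocyte markers higher. Scarb2 was at -0.996 (not called) without resident replicate 3.

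Tfeb was at 665, 736 and 872 in the Ly-6B+ group and at 369.7, 632 and 204 in resident cells, a difference of 1.02 (SE 0.30, adjusted p = 0.0348) without overlap. The call was lost when any 1 of Ly-6B+ replicates 1, 2 and 3 or of resident replicates 1 and 3 was left out, with changes from 0.62 to 1.11. Against the Ly-6B- group Tfeb stood at 0.74 (adjusted p = 0.148).

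The Ly-6B- macrophages of 168 h had no gene called against resident macrophages in limma, where 0.0411% of all genes were called higher and 0% lower, and 1 gene was higher and 0 lower at an unadjusted p under 0.05. The list's median was 0.00 and that of all genes -0.01. No gene passed on adjusted p alone, and 0.0411% and 0.00823% of all genes did. The gene at an unadjusted p under 0.05 was Gpnmb, which was higher in each Ly-6B- array than in any resident array, by 1.93 (SE 0.38, adjusted p = 0.102). It was called with a larger pseudocount (1.64, adjusted p = 0.0255), with array weights (1.98, adjusted p = 0.0456) and with the 3 arrays that stood apart left out (1.93, adjusted p = 0.00870). The remaining changes ran from -0.22 for Scarb2 to 0.80 for Atp6v0d2, a gene near the floor, and a p that misses the threshold does not show that the levels were equal.

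The 72 h macrophages differed from resident macrophages in Gpnmb, by 2.45 (SE 0.38, adjusted p = 0.00107), a 5.46-fold difference. That 1 gene is 2.56% of the list, where 0.666% of all genes were higher, and 0 were lower by limma where 0.0247% were, with 3 lower at an unadjusted p under 0.05. The medians were 0.02 for the list and -0.04 for all genes. On adjusted p without the fold minimum, 2 were higher and 0 lower, where 1.02% and 0.0987% of all genes passed, and the second was Gla at 0.84 (adjusted p = 0.0460). The comparison shares its 72 h arrays with that against 18 h and its resident arrays with that of the Ly-6B- group, and the Ly-6B- value for Gpnmb stands above. Of the classical monocyte markers, 4 of 6 were called higher at 72 h, with sums of 10511 to 19829 against 5911 to 6921 in resident cells, and their part in the result was not tested.

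The 7 proton pump genes were called in no comparison with the probe sets and scaling used. On adjusted p alone, 3 were higher and 1 lower at 4 h against bone marrow (16.4% and 30.1% of all genes), 1 was higher and 2 lower in resident cells against bone marrow (25.3% and 22.1%), and 2 were lower at 18 h against 4 h (12.5%) and in the Ly-6B+ against the Ly-6B- group (4.58%). No pump gene passed in the other 4 comparisons by limma, where at an unadjusted p under 0.05 there were 1 higher at 72 h against 18 h, 2 higher at 72 h and 1 higher and 2 lower in the Ly-6B+ group against resident cells, and 0 in the Ly-6B- group. Atp6v1a, the catalytic subunit of the part that splits ATP, was at 6098, 6063 and 5492 in bone marrow, 9949.8, 9935 and 8759.8 at 4 h, 5154, 5229.9 and 4088 at 18 h, and 6313, 6569 and 5318 at 72 h. In the later groups it was at 4735, 4767 and 3879 with Ly-6B, 7164, 6394 and 4800.3 without, and 5855, 5856 and 4782 in resident cells. Every 4 h array was above every other array. It differed by 0.70 at 4 h against bone marrow (SE 0.14, adjusted p = 3.81e-04) and by -0.99 at 18 h against 4 h (SE 0.14, adjusted p = 1.22e-05), which is just short of the fold minimum and crossed it without 4 h replicate 3 (-1.05), 18 h replicate 1 (-1.04) or 18 h replicate 2 (-1.05). With the mean of its probe sets Atp6v1a was called in both, at 1.02 and -1.27, as it was at a common array median (1.06 and -1.28).

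Atp6v1h, a regulatory subunit of the same part, had the same order at 4 h. It was at 3353, 3497 and 3501 at 4 h, above every other array, against 1782, 2024 and 2006 in bone marrow (0.83, SE 0.12) and 1951, 2390.2 and 2213 at 18 h (-0.66, SE 0.12). Another Atp6v1h probe set, at a mean signal of 1163, gave 0.40 and -0.52 for these comparisons. Elsewhere it went the other way. It gave -0.82 in resident cells against bone marrow, where the one used gave 0.19. In the Ly-6B+ against the Ly-6B- group it gave 0.94, where the one used gave -0.42. Atp6ap1, an accessory subunit, had its highest mean at 18 h, 7116 ± 490.1 (SD, n = 3), and its lowest in bone marrow, 4501 ± 479. Atp6v1b2, the B subunit of the ATP-splitting part, was highest in bone marrow at 8169.9 ± 574 and lowest in resident cells at 5654 ± 472 (-0.53, adjusted p = 8.26e-04). Atp6v0d1, a subunit of the membrane part, ranged from 4642 in the Ly-6B+ group to 6909 at 4 h, and Atp6ap2, the accessory subunit also known as the prorenin receptor, from 15977 in the Ly-6B- group to 20602 at 4 h. Atp6v0d2, an isoform known from osteoclasts, had group means of 19.5 to 76.4 and was above the table median in 3 of 21 arrays. The mean of its probe sets, the second of which had a mean signal of 33.4, was called at 18 h against 4 h (1.46).

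**Figure D4:**
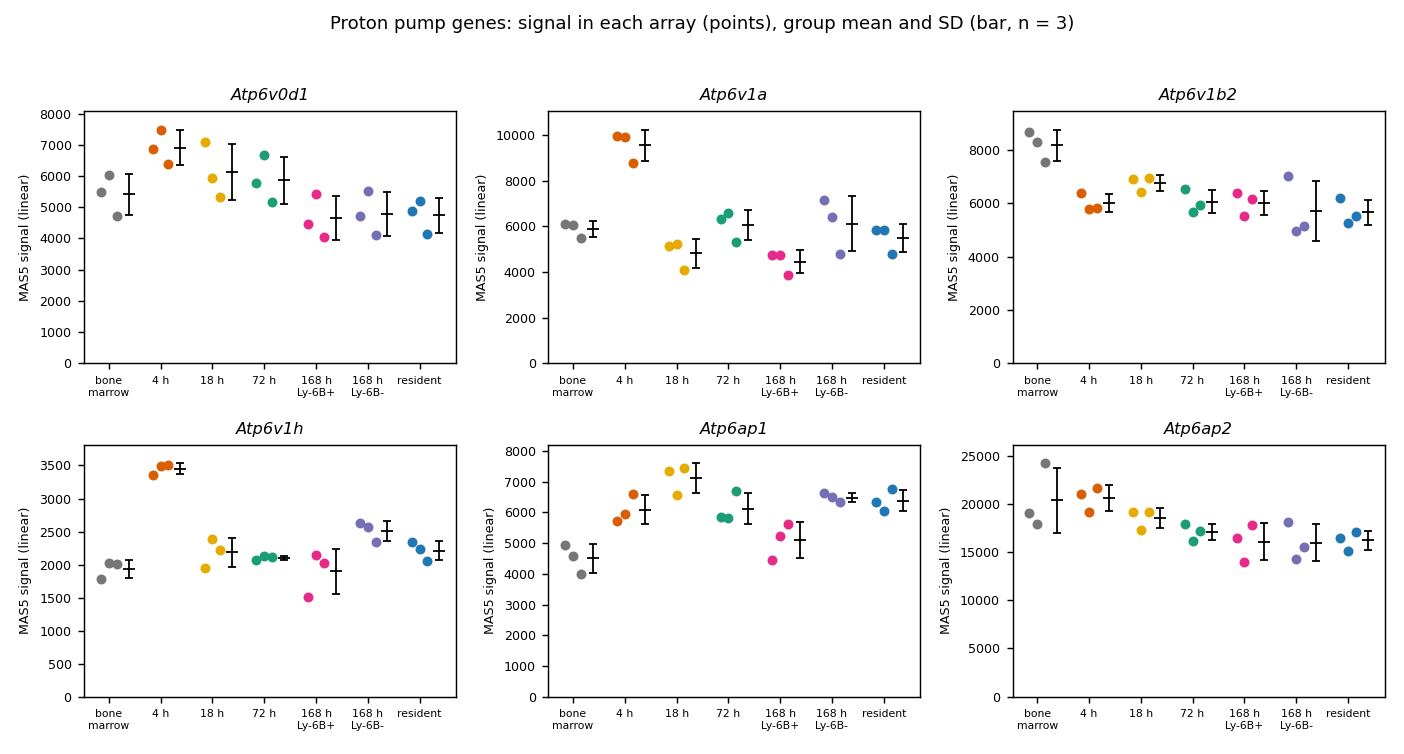
Points are the linear MAS5 signal of each array for 6 pump genes in 7 groups, and bars are the mean and SD of 3 arrays; every axis starts at 0. The 4 h arrays of Atp6v1a and Atp6v1h lie above all other arrays, and the highest group mean of each gene is between 1.29 times (Atp6ap2) and 2.14 times (Atp6v1a) its lowest.

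The 25 genes called in no comparison include most cathepsins. For some of the 25, among them Ctsb, Ctsc, Ctsz, Grn and Lamp2, the size of the change depended on the probe set. For others, among them Npc2 and Atp6v1h, its direction did. Ctsb, a cysteine protease, had group means from 17137 in bone marrow to 29949 in resident cells (0.81, adjusted p = 5.16e-07). Its 4 other probe sets, of lower mean signal, gave 1.43 to 2.56 for the same comparison and 1.16 to 2.17 at 4 h, and the mean of all was called in both (1.77 and 1.47). Ctsz, another cysteine protease, ranged from 12345 in bone marrow to 19592 at 4 h (0.66, adjusted p = 2.85e-04). The other Ctsz probe sets, of lower mean signal, gave 1.11 and 1.21 for that comparison. Ctsh, an aminopeptidase, ranged from 13149 at 4 h to 20131 at 72 h, and Ctsc, which activates granule proteases, from 22764 to 28348. At 4 h against bone marrow Ctsc stood at 0.20, where its other probe sets gave 1.85 and 1.95 and the mean of all was called (1.33). Ctss, a protease of antigen presentation, was between 27228 and 34188, and Ctsk, known for collagen breakdown, between 64.0 and 113, above the table median in 11 of 21 arrays. Ctsa ranged from 8735 in bone marrow to 15666 in the Ly-6B- group.

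Among the other glycosidases, Hexa, the alpha subunit of beta-hexosaminidase, ranged from 11213 at 4 h to 25006 in the Ly-6B- group and Idua, alpha-iduronidase, from 377 at 4 h to 1045 in resident cells. Ids, iduronate sulfatase, had 4459 in bone marrow and 8516 in resident cells (0.94, adjusted p = 1.94e-06). Neu1, neuraminidase, was highest at 4 h, 906, and lowest at 18 h, 591. Of the lipid genes, Asah1, acid ceramidase, ranged from 9789.7 at 4 h to 15743 in resident cells, and Psap, the precursor of the saposin activators, from 20355 in the Ly-6B+ group to 29831 at 4 h. Npc1 and Npc2, which move cholesterol out of the lysosome, ranged from 444 at 4 h to 852 at 18 h and from 21364 at 18 h to 30331 in resident cells. In resident cells against bone marrow the Npc2 probe set used gave 0.25. Its other probe sets gave 0.18 (mean signal 24524), -0.61 (3547) and -1.06 (215). Grn, progranulin, ranged from 20958 at 4 h to 27791 in resident cells. In resident cells against bone marrow its other probe sets gave 1.22 and 0.73, where the one used gave 0.32. At 72 h against 18 h they gave 1.28 and 0.54, where the one used gave 0.18.

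Lamp1 and Lamp2, the most abundant proteins of the lysosomal membrane, differed in their order. Lamp1 was lowest at 4 h, with 13624, 15239 and 14748 against 18581, 18130.4 and 17789 in bone marrow (-0.32, adjusted p = 0.00156). Lamp2 was lowest in bone marrow, with 14054, 14766 and 15291 against 24474, 23620.1 and 25309 at 4 h (0.73, adjusted p = 2.87e-07). The groups did not overlap for either gene, in opposite directions. The other Lamp2 probe sets gave 0.21 to 1.52 for that comparison and 0.31 to 2.05 for resident cells against bone marrow, where the one used gave 0.71 and the mean of all was called (1.12). At a common median the Lamp1 difference was 0.04 and that of Lamp2 was 1.10, so the lower Lamp1 did not hold under that scaling.

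A further 77 lysosomal genes outside the list were tested, from 4 lists of other hydrolases, membrane proteins and sorting receptors, pump subunits, and transcription factors with nutrient sensors and cathepsin inhibitors. In resident cells against bone marrow, 16 were called higher (20.8%, against 12.8% of all genes) and 6 lower (7.79% against 10.1%). At 4 h against bone marrow, 5 were higher (6.49% against 7.45%) and 8 lower (10.4% against 14.5%), both below the background. At 18 h against 4 h, 9 were higher (11.7% against 10.9%) and 3 lower (3.9% against 4.48%), both near it. At 72 h against 18 h, 10 were higher (13% against 9%) and 2 lower (2.6% against 3.41%). The Ly-6B+ group had 1 lower against the Ly-6B- group (1.3% against 2.38%) and 3 lower against resident cells (3.9% against 2.36%), with 0 higher in either by limma (1.49% and 1.9% of all genes). At an unadjusted p under 0.05, 31 were lower and 5 higher in the former and 30 lower and 4 higher in the latter. Rates over all genes at an unadjusted p were not counted for any comparison, so the unadjusted counts given here have no background beside them. Against resident cells, 72 h had 1 higher (1.3% against 0.666%) and 0 lower (0.0247%), and the Ly-6B- group had none called by limma (0.0411% and 0%), with 6 lower and 9 higher at 72 h and 2 lower and 3 higher in the Ly-6B- group at an unadjusted p under 0.05. The hydrolase Ctsf, cathepsin F, was at 10.8 ± 9.86 at 18 h and 634 ± 210.4 at 72 h, and at 126 ± 40.5 in the Ly-6B+ group against 683 ± 103 in the Ly-6B- group. Naglu, a glucosaminidase that degrades heparan sulfate, was at 531 ± 51.8 at 18 h and 2302 ± 152 at 72 h, and Hgsnat, a membrane acetyltransferase of the same pathway, at 2665 ± 372 and 14871 ± 1398.

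Other genes of these lists changed between bone marrow and 4 h. Arsb, arylsulfatase B, was at 4203 ± 549 in bone marrow and 788 ± 134 at 4 h, and Manba, beta-mannosidase, at 1937 ± 70.7 and 612 ± 16.8. Slc15a3, a peptide and histidine transporter of the lysosome, was at 2070.1 ± 318 and 16073 ± 631. Among pump subunits, 1 of 11 was called, Atp6v0a1, a membrane subunit, at 198 ± 74.2 in bone marrow and 776 ± 253 at 4 h. Tfe3, a relative of Tfeb, was at 1167 ± 340 in bone marrow and 2604 ± 628 at 4 h. Mitf, another relative, was at 1113 ± 160 at 4 h and 2638 ± 151 at 18 h, and Tfec, the fourth of the family, at 3946 ± 247 and 501 ± 127.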

How the data were processed

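The authors deposited a linear intensity per probe set, computed with MAS5, and the submitters' processing notes name Affymetrix Expression Console 1.2. The mean signal without the lowest and highest 2% of probe sets was 500.0, averaged over the arrays, so levels are relative. RNA (100 ng) was labelled in 2 cycles per the labels' protocols. The deposited table holds 45101 probe sets, of which 34958 had 1 gene symbol, 932 had several and 9211 were not listed. Detection calls and scan dates were not used here, and precision is limited by the 3 arrays per group.

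Signals above 80.6, the table median, in at least 3 arrays were required. limma 3.58.1 in R 4.3.3 (lmFit, eBayes with trend) was fitted to all 21 arrays on log2(signal + 15), with 14 residual degrees of freedom and 2-sided tests, and checked on simulated data. Genes called were named up to 6 per direction, and other members by function. The members, the gene lists and the tests were chosen with earlier results of these data known. Alternatives were other pseudocounts, scalings, filters, probe set choices, array weights, the replicate block, only the 6 arrays compared and each array left out. A pairing of the 168 h arrays by replicate number is known only from their same-number residuals, which correlated at 0.304, 0.280 and 0.175. Each of the other comparisons had at least 1 correlation at or under 0.1.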

Additional observations from a re-analysis of the deposited data

How the results depend on the processing

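Of 35 calls of a gene in a comparison, 18 held under each of the 19 alternatives run for it, 17 were lost under at least 1 and none was reversed. Dropping the fold minimum, 1 of the 19, could lose no call. Averaging probe sets leaves the values of a gene with 1 probe set unchanged, as for Glb1, Lgmn and Ctsd. The count of called genes moved by over 1.5 times as follows. At 18 h against 4 h it was 4 with a pseudocount of 4 times the value used and 4 at a common array median, from 7. In the Ly-6B- group against resident cells it was 1 with that pseudocount, 1 with array weights and 1 without the 3 arrays that stood apart (chosen after seeing the data), from 0 as tested by limma, and the gene was Gpnmb each time. Averaging all probe sets per gene gave 2 at 72 h against 18 h, from 5, and 0 at 72 h against resident cells, from 1, in limma. The 2 at 72 h against 18 h were Glb1, which held, and Scarb2, newly called at 1.06. Gaa, Gpnmb, Man2b1 and Smpd1 were lost there. With no fold minimum the counts were 28 in resident cells against bone marrow, 22 at 4 h, 22 at 18 h, 13 at 72 h against 18 h, 16 in Ly-6B+ against Ly-6B- cells, 2 at 72 h against resident cells and 14 in Ly-6B+ against resident cells. Causes of these shifts were not tested. With the replicate block, the counts were 10, 5, 7, 5, 3, 4, 0 and 1 in the order in which the 8 comparisons are described above, and it changed no call of these. This block fits a shared effect of each replicate number across all 7 groups and is no paired test of the 168 h groups alone. In the F test it gave 37 genes. Signals near the floor, as of Atp6v0d2 and Ctsk, limit what can be said of those genes.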
